A study of Mus musculus with 12 samples.

Results

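The 50 genes described here encode the receptors, transducers, nuclear factors, ligand export machinery and feedback inhibitors of the Wnt pathway, as expressed in bone marrow-derived macrophages (BMDMs). They were chosen by name: each is a row of the deposited count table whose Ensembl identifier pairs with a listed mouse symbol, and all 50 were found among 48526 genes. BMDMs were grown from the marrow of 3 female C57Bl/6J mice in medium with mCSF (10 ng/mL), which drives macrophage differentiation, and were used on day 7. Cells of each mouse were left untreated (Untreated), or were treated for 16 hours with Wnt3a (100 ng/mL), with IL4 (100 pg/mL), or with the combination of Wnt3a and IL4 (Wnt3a+IL4), and RNA was sequenced from each of these 12 cultures. No age or allele is given in the labels, and each replicate is 1 mouse.

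In canonical Wnt signaling, a Wnt protein binds a frizzled receptor and the co-receptor LRP5 or LRP6, dishevelled is recruited, and the destruction complex of axin, APC, GSK3 and casein kinase stops marking beta-catenin for breakdown. Beta-catenin then enters the nucleus and works with TCF/LEF factors to switch on target genes. Several of these targets, such as Axin2, Rnf43, Znrf3, Nkd1 and Notum, encode inhibitors that feed back on the pathway, and many regulated steps act on proteins rather than on transcripts.

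In each mouse, the Wnt3a and Wnt3a+IL4 columns of the table obeyed, in all 48526 genes, bounds (the first between 1 and 2 times the second) that separate libraries would not, with 0 genes outside them, against 6681 to 8625 genes when the columns came from different mice. The columns of a mouse therefore share reads. Each pair was solved into a difference (Wnt3a minus Wnt3a+IL4) and a remainder (2 times Wnt3a+IL4 minus Wnt3a), which held 0 negative values. Both parts come from Wnt3a-treated cells, but the labels do not settle which of them is Wnt3a alone and which is Wnt3a+IL4. The 5 comparisons were IL4, the difference and the remainder against Untreated, the remainder against the difference, and both Wnt3a-treated parts against Untreated and IL4 (6 against 6 libraries from 3 mice), the last of which is the same whichever part is which. Levels are given as CPM, the counts of a gene per 1000000 counts of the TMM-scaled library size, in the order mouse 1, mouse 2 and mouse 3. A change was called at an adjusted p under 0.05 in the edgeR quasi-likelihood test over 12421 genes, and standard errors (SE) are on the log2 scale.

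Total counts were 13342492 to 17113982 in the Untreated and IL4 libraries and 14171994 to 17453377 in the solved parts. Macrophage markers summed to 44610 to 69010 CPM in every library, of which Lyz2 made up 34000 to 57330 CPM. Fcgr1 was at 85.83 to 135.6 CPM without and 189.3 to 286.3 CPM with Wnt3a. Itgam was at 109.9 to 135.2 CPM without and 229.9 to 285.8 CPM with it. Cd14 was at 386.7 to 589.6 CPM without and 609.0 to 1000 CPM with it. Lyz2, Csf1r, Adgre1, Cd68, Mertk, Mrc1 and C1qa overlapped between libraries with and without Wnt3a. Of 10 stromal markers, Pdgfra, Lum and Thy1 had at most 3 counts in every library, and the sum of the list overlapped between groups (11.1 to 34.9 CPM over all libraries). Single markers moved in opposite directions. Acta2 was at 2.37 to 4.04 CPM without and 4.55 to 8.59 CPM with Wnt3a. Cxcl12 was at 0.192 to 1.22 CPM without and 0.0727 to 0.197 CPM with it. The 5 endothelial markers summed to 17.05 to 20.16 CPM in Untreated and 18.86 to 26.95 CPM in the remainder. Of these, Pecam1 was at 0.753 to 1.42 CPM in Untreated and 5.13 to 11.1 CPM in the remainder. Kdr went the other way, at 15.57 to 18.54 CPM in Untreated and 11.06 to 15.78 CPM in the remainder. Tek and Emcn had at most 3 counts in every library, and Cdh5 overlapped between these groups. The neutrophil list summed to 48.9 to 61.2 CPM in Untreated, 64.7 to 75.2 CPM in IL4, 35.7 to 56.5 CPM in the difference and 32.0 to 36.3 CPM in the remainder, with Ly6g, a defining marker, at 3 counts or fewer everywhere. The 5 dendritic cell markers summed to 0.965 to 1.74 CPM without Wnt3a, 2.98 to 7.67 CPM in the difference and 8.48 to 21.1 CPM in the remainder. Most of that rise was Ccr7, at 2.25 to 19.8 CPM in the solved parts, while Flt3 stayed at 0 to 0.329 CPM. Zbtb46 was at 0.257 to 0.484 CPM in Untreated and 0.577 to 0.839 CPM in IL4. It was at 0.291 to 0.611 CPM in the difference and 0.807 to 1.72 CPM in the remainder. Xcr1 and Siglech overlapped between Untreated and the remainder. The part of these cell types in the results was not tested, and in bulk RNA fewer cells of a type cannot be told apart from less RNA per cell.

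Per kilobase of exon, Ctnnb1, the gene of beta-catenin, had the highest level of the 50 genes in Untreated cells, at 97.7 CPM per kb. It was followed by the casein kinase gene Csnk1d (35.9 CPM per kb), by Pygo2, a nuclear cofactor of beta-catenin (24.6 CPM per kb), and by the destruction complex kinase Gsk3a (23.0 CPM per kb) and scaffold Axin1 (20.5 CPM per kb). Among receptors, the co-receptor Lrp5 (11.9 CPM per kb) and Fzd7 (8.11 CPM per kb) led, above Lrp6 (4.71 CPM per kb), Fzd5 (1.36 CPM per kb) and Fzd1 (1.13 CPM per kb). Wls, which carries Wnt proteins to the cell surface, was at 12.5 CPM per kb. The members at the low end included most of the feedback genes and all TCF/LEF genes other than Tcf7l2.

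**Figure D1:**
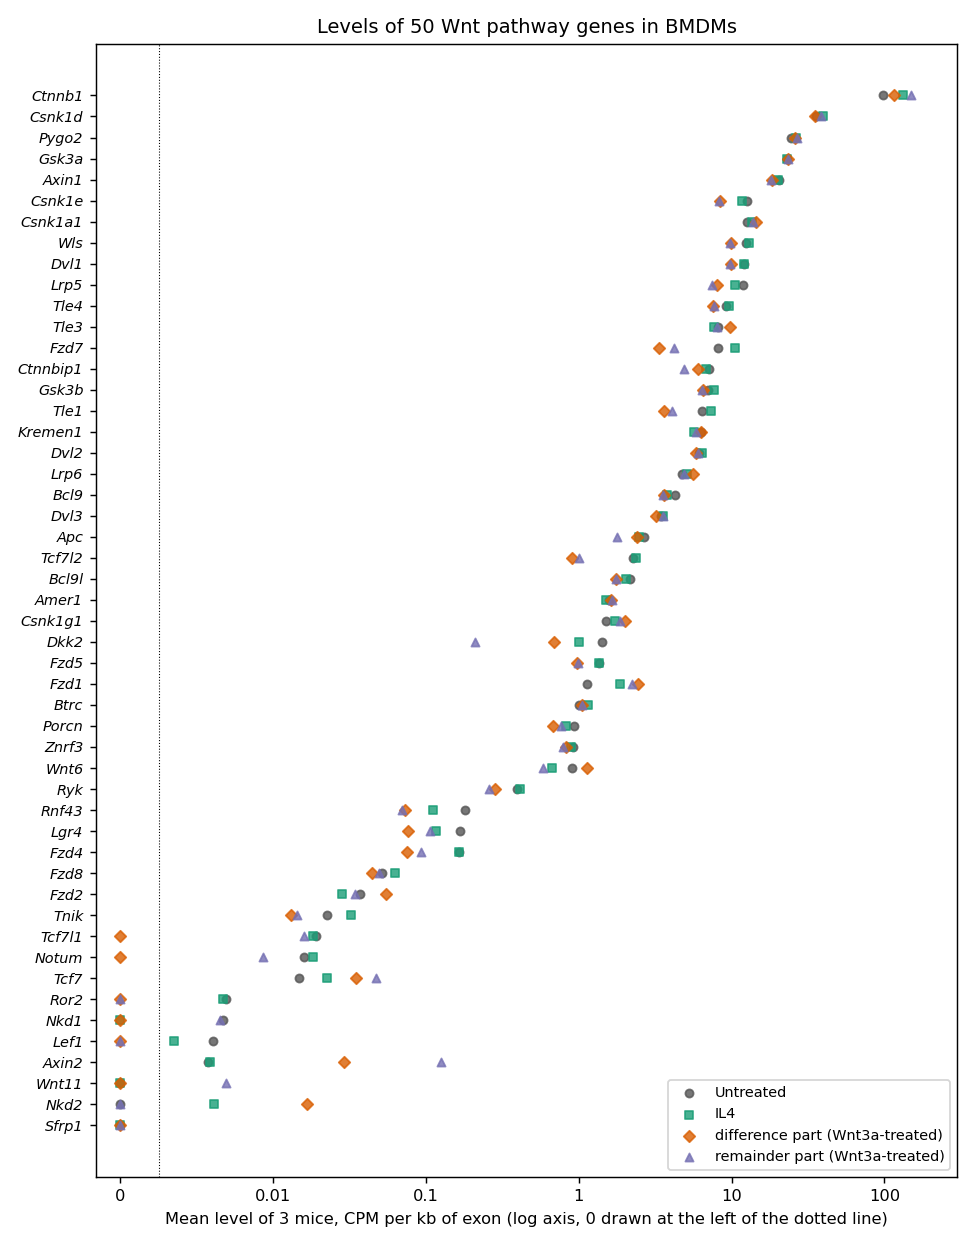
Mean level of the 50 genes in CPM per kb of exon (log axis) in Untreated, IL4, the difference and the remainder (3 mice each), ordered by the Untreated level. The order runs from Ctnnb1 at 97.7 CPM per kb to Sfrp1 at 0 counts, and Dkk2 falls from 1.42 CPM per kb in Untreated to 0.209 CPM per kb in the remainder.

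At least 10 counts in at least 3 libraries were reached by 37 of the 50 genes, and the other 13 were not tested. Of these 13, 9 had at most 3 counts in every library: the receptor gene Ror2, the TCF/LEF genes Tcf7, Tcf7l1 and Lef1, the ligand gene Wnt11, and the inhibitor genes Nkd1, Nkd2, Notum and Sfrp1. Sfrp1 had 0 counts in all 12 libraries, which allows up to 3 counts in each, and this limit covers counting error only. Fzd2 had at most 5 counts, Fzd8 at most 8, Tnik, a kinase that works with TCF factors, at most 15, and Axin2 at most 13.

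Axin2, a destruction complex scaffold that is also a direct target of TCF/LEF in many tissues (chr11:108920349-108950783, mm10, plus strand), had counts of 0, 0 and 1 in Untreated and of 0, 1 and 0 in IL4. It had counts of 1, 1 and 5 in the difference and of 11, 9 and 13 in the remainder. All 3 remainder libraries thus stood above all others, while the difference libraries of mice 1 and 2 had 1 count each, as did the highest Untreated and IL4 libraries. Against a floor of 3 counts per library, the remainder (0.697 ± 0.151 CPM, SD, n = 3) was at least 3.85-fold higher than Untreated and at least 3.55-fold higher than IL4. Axin2 passed too few counts for the main test. When all genes with at least 1 count were tested instead, its edgeR adjusted p was 1.7e-05 for the remainder against Untreated, 0.2 for the difference against Untreated and 0.035 for the remainder against the difference. With DESeq2 the adjusted p was 0.0046 for the remainder against Untreated, and 0.0018 for both parts against Untreated and IL4. For the remainder against the difference, DESeq2 gave an unadjusted p of 0.03535 and no adjusted p. Lef1, a target and effector of the pathway elsewhere (chr3:131110471-131224356, plus strand), had 2, 0 and 0 counts in Untreated, 1, 0 and 0 in IL4 and 0 in all 6 Wnt3a-treated libraries, so no change was detectable at this depth. These are the transcripts for which the study designed qPCR primers, shown here because they mark which part of each transcript its assay reads. The Axin2 product is 101 bases in 2 of 7 annotated transcripts, and the Lef1 product is 67 bases in 2 of 8.
Axin2 forward: cagcccttgtggttcaagct
Axin2 reverse: ggtagattcctgatggccgtagt
Lef1 forward: tgtttatcccatcacgggtgg
Lef1 reverse: catggaagtgtcgcctgacag

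With Wnt3a (both parts against Untreated and IL4), 18 of the 37 tested genes changed, of which 15 fell and 3 rose, beside 32.6% of all genes tested. Over all genes, 16.5% were called higher and 16.1% lower. The median log2 fold change of the 37 genes was -0.18, and that of all genes tested was -0.02. By role, 6 of 8 receptor genes, 4 of 7 transducer genes, 0 of 7 destruction complex genes, 5 of 8 nuclear factor genes, 1 of 3 ligand and export genes and 2 of 4 inhibitor genes were called. In 11 of the 18, all of them lower with Wnt3a, the 6 Wnt3a-treated libraries did not overlap with the other 6, and the direction was seen in each of the 3 mice for all 18. The 18 were picked by the test on these same libraries, so neither count is separate support. The share of all genes without such overlap was not determined. With total counts in place of TMM scaling, the median of all genes moved to -0.09 and the share of called genes that were higher fell from 50.52% to 36.3%, and no called member changed direction. With any 1 mouse left out, 9 of the 18 kept an adjusted p under 0.05 (Fzd4, Fzd5, Fzd7, Lrp5, Csnk1e, Tcf7l2, Tle1, Wls and Dkk2). The other 9 lost it without mouse 3, which left 9 calls in all, and 6 of these also lost it without mouse 2.

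**Figure D2:**
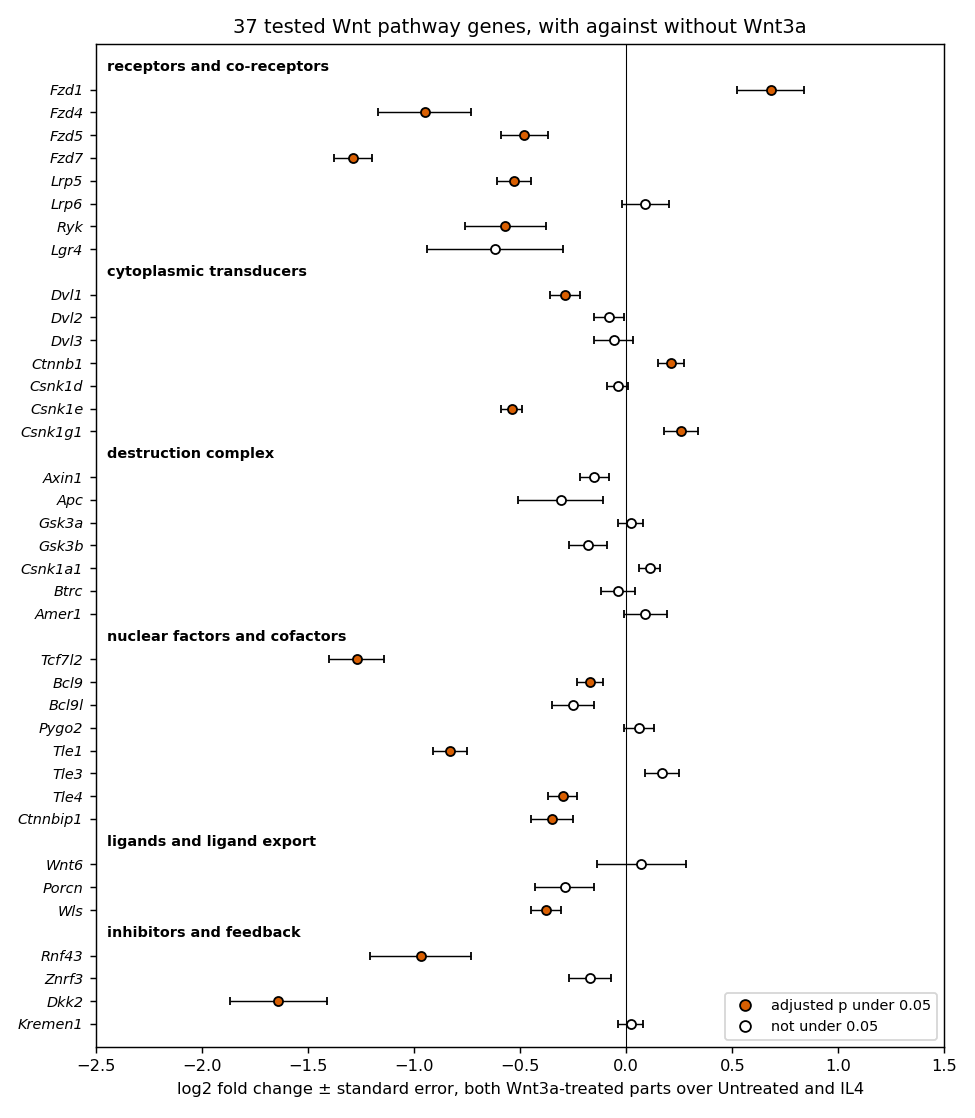
log2 fold change ± SE of both Wnt3a-treated parts over Untreated and IL4 for the 37 tested genes, grouped by role (filled, edgeR adjusted p under 0.05). Filled points lie mostly left of 0, with Fzd1, Ctnnb1 and Csnk1g1 to the right, and no destruction complex gene is filled.

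Among receptors, the largest change of both parts against Untreated and IL4 was in Fzd7, a frizzled receptor (chr1:59482424-59486955, plus strand). Its level was 32.7, 42.3 and 35.2 CPM in Untreated, 47.1, 48.8 and 46.9 CPM in IL4, 13.8, 17.1 and 14.8 CPM in the difference and 16.8, 18.7 and 21.9 CPM in the remainder. Every Wnt3a-treated library was below every other library. The log2 fold change with Wnt3a was -1.29 (SE 0.09, edgeR adjusted p = 5.9e-08), a 2.45-fold lower level, and it was -1.26 to -1.34 with any 1 mouse left out. In the IL4 libraries Fzd7 was above Untreated in all 3 mice, but the change (0.37, SE 0.12) did not pass the test (adjusted p = 0.13).

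Fzd1 moved the other way (chr5:4753839-4758035, minus strand). It was at 4.73, 4.89 and 4.64 CPM in Untreated, 8.03, 8.12 and 7.29 CPM in IL4, 7.10, 12.1 and 11.5 CPM in the difference and 7.58, 12.7 and 7.88 CPM in the remainder. All 9 treated libraries stood above the Untreated ones, while the IL4 and Wnt3a-treated libraries overlapped. Fzd1 rose against Untreated in the difference (log2 1.10, SE 0.22, edgeR adjusted p = 0.0025) and the remainder (0.98, SE 0.22, adjusted p = 0.005), and with Wnt3a overall (0.68, SE 0.16, adjusted p = 0.0037). Without mouse 3 these adjusted p values were 0.079, 0.059 and 0.066. The IL4 value (0.72, SE 0.23) did not pass the test (adjusted p = 0.13). Fzd1 was called with IL4 when all genes with at least 1 count were tested, and with only the groups compared in the fit. The RefSeq promoters of Fzd1 and Fzd7, the frizzled genes that moved furthest in each direction, are shown as 300 bases that end shortly after the RefSeq start site (GRCm38.p6), which lies upstream of the GENCODE gene start given above, with any copy of the TCF/LEF core CTTTGA or its reverse complement TCAAAG in capitals.
Fzd1, chr5:4758167-4758466, minus strand: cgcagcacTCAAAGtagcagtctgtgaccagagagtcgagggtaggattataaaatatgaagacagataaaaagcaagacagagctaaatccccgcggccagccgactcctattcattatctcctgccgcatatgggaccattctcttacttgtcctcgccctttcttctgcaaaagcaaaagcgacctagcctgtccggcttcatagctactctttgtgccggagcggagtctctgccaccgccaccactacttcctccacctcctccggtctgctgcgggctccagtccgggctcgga
Fzd7, chr1:59481897-59482196, plus strand: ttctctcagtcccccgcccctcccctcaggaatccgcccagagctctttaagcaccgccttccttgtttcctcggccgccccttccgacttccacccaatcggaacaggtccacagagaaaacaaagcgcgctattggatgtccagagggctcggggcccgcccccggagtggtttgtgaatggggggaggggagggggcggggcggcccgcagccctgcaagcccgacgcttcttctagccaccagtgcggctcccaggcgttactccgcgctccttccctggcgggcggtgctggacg

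The Fzd1 promoter holds 1 copy, at position -242 from the RefSeq start site, and the Fzd7 promoter holds none. Over the 33 members with a RefSeq promoter entry, 5 of 48 promoters (10.4%) held the core, against 16.0% of all 32851 promoters. The longer form CTTTGAT, which contains the core, was in 2.08% of member promoters and in 3.73% of all promoters. A match is a run of letters only.

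The remaining receptors that changed were lower with Wnt3a. Lrp5, the co-receptor (chr19:3584828-3686564, minus strand), was at 97.8, 126.5 and 124.3 CPM in Untreated, 107.1, 94.6 and 107.6 CPM in IL4, 67.9, 84.0 and 83.7 CPM in the difference and 73.7, 66.9 and 77.5 CPM in the remainder. The groups with and without Wnt3a did not overlap, and the log2 fold change was -0.53 (SE 0.08, edgeR adjusted p = 0.00011). Its paralog Lrp6 gave 0.09 (SE 0.11, adjusted p = 0.55), with overlapping libraries at 52.6 to 76.1 CPM without and 52.9 to 85.0 CPM with Wnt3a. Fzd5 was at 8.56 to 10.3 CPM without Wnt3a and 5.84 to 8.48 CPM with it (log2 -0.48, SE 0.11, adjusted p = 0.0033). Fzd4 was low throughout, at 0.878 to 1.29 CPM without Wnt3a and 0.291 to 0.676 CPM with it (log2 -0.95, SE 0.22, adjusted p = 0.0042). Ryk, a Wnt co-receptor of the kinase-like type, was at 1.56 to 2.24 CPM without and 0.983 to 1.58 CPM with Wnt3a (-0.57, SE 0.19, adjusted p = 0.029), and these ranges overlapped. Without mouse 2 the adjusted p for Ryk was 0.27, and without mouse 3 it was 0.12. Lgr4, a receptor for R-spondins, was lower in mean (-0.62, SE 0.32) without passing the test (adjusted p = 0.16).

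Ctnnb1 (chr9:120929216-120960507, plus strand) was the only one of the 37 genes called with IL4 alone, beside 3.4% of all genes tested (2.31% higher and 1.09% lower). It was at 537.7, 490.7 and 493.6 CPM in Untreated and 782.8, 642.1 and 638.8 CPM in IL4. It was at 606.4, 616.1 and 566.4 CPM in the difference and 764.2, 798.4 and 774.7 CPM in the remainder. The 4 groups thus ran in the order Untreated, difference, IL4 and remainder, and the IL4 and remainder libraries overlapped. IL4 against Untreated gave a log2 fold change of 0.44 (SE 0.09, edgeR adjusted p = 0.01), with an adjusted p of 0.069 without mouse 2 and 0.25 without mouse 3. The remainder was higher than Untreated by 0.62 (SE 0.09, adjusted p = 0.00011). The difference against Untreated gave 0.23 (SE 0.09, adjusted p = 0.069). That comparison was called with DESeq2, with only the groups compared in the fit, and without mouse 1. In both parts against Untreated and IL4 Ctnnb1 rose by 0.21 (SE 0.06, adjusted p = 0.019). Its adjusted p was 0.17 without mouse 2, 0.17 without mouse 3 and 0.092 under total-count scaling, so the call was lost in each. Of its exon bases, 14.6% overlap Ulk4 on the other strand, and the strand setting of the counting is not given in the sources used here.

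Among the other transducers, Csnk1e, a casein kinase gene (chr15:79417856-79455566, minus strand), fell in both parts. It was at 83.0, 87.6 and 78.2 CPM in Untreated, 77.9, 76.6 and 78.6 CPM in IL4, 55.9, 55.6 and 55.3 CPM in the difference and 57.0, 53.2 and 54.3 CPM in the remainder. Its log2 fold change with Wnt3a was -0.54 (SE 0.05, edgeR adjusted p = 8.7e-07). Dvl1, a dishevelled gene, fell by 0.29 on the log2 scale (SE 0.07, adjusted p = 0.0047), and its paralogs Dvl2 (-0.08, SE 0.07) and Dvl3 (-0.06, SE 0.09) did not pass the test. Csnk1g1, another casein kinase gene, rose by 0.26 (SE 0.08, adjusted p = 0.027), with overlapping libraries. Its adjusted p was 0.05 with the mouse as a replicate block, 0.13 under total-count scaling, 0.16 without mouse 2 and 0.091 without mouse 3. Without mouse 3 that of Dvl1 was 0.066.

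Of the 8 destruction complex genes, Axin2 had too few counts for the main test, and its calls under other settings are given above. None of the other 7 passed the test with Wnt3a, beside 32.6% of all genes tested. However, 2 of the 7, Axin1 and Csnk1a1, had an unadjusted p under 0.05. Axin1 was called under total-count scaling, and Axin1, Csnk1a1 and Gsk3b were called with the deposited columns. The deposited Wnt3a and Wnt3a+IL4 columns of a mouse share reads, so they are not separate libraries. Csnk1a1, the casein kinase gene that primes beta-catenin for breakdown, was at 133.8, 129.2 and 132.8 CPM in Untreated, 140.9, 151.3 and 134.9 CPM in IL4, 158.5, 145.7 and 148.5 CPM in the difference and 135.8, 155.9 and 144.2 CPM in the remainder. The Untreated libraries were the lowest, and the other groups overlapped. Its log2 fold change with Wnt3a was 0.11 (SE 0.05, edgeR adjusted p = 0.12). In the difference against Untreated, Csnk1a1 was called with DESeq2. Axin1 gave -0.15 (SE 0.07), Gsk3b -0.18 (SE 0.09), Gsk3a 0.02 (SE 0.06), Btrc, a ubiquitin ligase subunit, -0.04 (SE 0.08) and Amer1, which recruits the complex to membranes, 0.09 (SE 0.10). Apc varied widely between libraries of a group, from 21.5 to 43.6 CPM in the remainder and from 27.5 to 53.3 CPM in Untreated. It gave -0.31 (SE 0.20, adjusted p = 0.28), and was called in this comparison only without mouse 2 or when all genes with at least 1 count were tested. Across the 1240 tested genes with over 9.7 kb of exon, the median log2 deviation also differed between libraries, from -0.23 in remainder mouse 1 to 0.13 in difference mouse 1, and its part in the Apc values was not tested.

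Of the 8 tested nuclear factor and cofactor genes, 5 fell with Wnt3a and none rose, beside 16.1% lower and 16.5% higher of all genes tested. Tcf7l2 (chr19:55741820-55933654, plus strand), the TCF/LEF gene with the most counts in these cells, was at 24.4, 16.7 and 19.0 CPM in Untreated and 16.8, 20.4 and 25.4 CPM in IL4. It was at 9.90, 6.84 and 7.27 CPM in the difference and 8.45, 9.03 and 9.20 CPM in the remainder. The groups with and without Wnt3a did not overlap (log2 -1.27, SE 0.13, edgeR adjusted p = 3.4e-06, a 2.42-fold lower level). Tle1, a Groucho-type corepressor that binds TCF factors (chr4:72117142-72200919, minus strand), was at 52.2, 63.4 and 51.1 CPM in Untreated, 67.7, 63.5 and 59.3 CPM in IL4, 27.3, 32.9 and 34.6 CPM in the difference and 33.7, 35.5 and 36.9 CPM in the remainder. It fell by 0.83 on the log2 scale (SE 0.08, adjusted p = 1.2e-06), again without overlap. Its relative Tle4 fell by 0.30 (SE 0.07, adjusted p = 0.0029, but 0.15 without mouse 3), while Tle3 gave 0.17 (SE 0.08, adjusted p = 0.15). Ctnnbip1, which keeps beta-catenin from TCF factors, fell by 0.35 (SE 0.10, adjusted p = 0.014). Its adjusted p was 0.11 without mouse 2 and 0.067 without mouse 3. Of its exon bases, 25.8% overlap a gene on the other strand. Bcl9, an adaptor between beta-catenin and Pygo2, fell by 0.17 (SE 0.06, adjusted p = 0.048), and this call was lost with the mouse as a replicate block (adjusted p = 0.062) and with any 1 mouse left out (0.084 to 0.38). Bcl9l (-0.25, SE 0.10) and Pygo2 (0.06, SE 0.07) did not pass the test.

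Wls (chr3:159839672-159938664, plus strand) was at 110.2, 101.4 and 117.0 CPM in Untreated, 109.5, 115.6 and 119.9 CPM in IL4, 78.4, 90.6 and 93.1 CPM in the difference and 73.3, 96.2 and 86.9 CPM in the remainder. All Wnt3a-treated libraries were below the others, and the log2 fold change was -0.38 (SE 0.07, edgeR adjusted p = 0.00092). Porcn, the enzyme that adds the lipid Wnt proteins need for secretion, gave -0.29 (SE 0.14, adjusted p = 0.15). Wnt6, the one ligand gene of the list that was tested, gave 0.07 (SE 0.21, adjusted p = 0.84). Its levels were 1.66, 2.56 and 3.27 CPM in the difference and 1.12, 1.41 and 1.31 CPM in the remainder, without overlap between them, but that comparison did not pass the test either (-0.95, SE 0.30, adjusted p = 0.088).

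Of the inhibitors, Dkk2, a secreted protein that binds LRP5 and LRP6 (chr3:132085292-132180304, plus strand), had the largest change of the 37 genes in both parts against Untreated and IL4 and in the remainder against Untreated, but not in the difference or in IL4 against Untreated. Its counts were 90, 95 and 77 in Untreated, 57, 57 and 57 in IL4, 37, 53 and 32 in the difference and 4, 21 and 12 in the remainder. In CPM these were 4.84, 6.11 and 4.83 in Untreated, 3.42, 3.64 and 4.11 in IL4, 2.12, 3.24 and 2.33 in the difference and 0.248, 1.29 and 0.788 in the remainder. The 4 groups did not overlap and ran downward in that order. Against Untreated, the log2 fold change was -0.50 in IL4 (SE 0.28, edgeR adjusted p = 0.47), -1.03 in the difference (SE 0.29, adjusted p = 0.02, but 0.19 without mouse 3) and -2.74 in the remainder (SE 0.34, adjusted p = 3.9e-05). With Wnt3a overall it was -1.64 (SE 0.23, adjusted p = 6.9e-05), and -1.43 to -1.98 with any 1 mouse left out. Rnf43, a membrane ubiquitin ligase that removes frizzled receptors, was at 1.08, 1.48 and 1.00 CPM in Untreated, 0.839, 0.767 and 0.577 CPM in IL4, 0.572, 0.427 and 0.436 CPM in the difference and 0.311, 0.615 and 0.460 CPM in the remainder. It fell with Wnt3a by 0.97 on the log2 scale (SE 0.24, adjusted p = 0.0065), with overlapping libraries and an adjusted p of 0.053 without mouse 2 and 0.055 without mouse 3. Its paralog Znrf3 gave -0.17 (SE 0.10, adjusted p = 0.22), and Kremen1, a receptor for Dkk proteins, gave 0.02 (SE 0.06, adjusted p = 0.86).

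**Figure D3:**
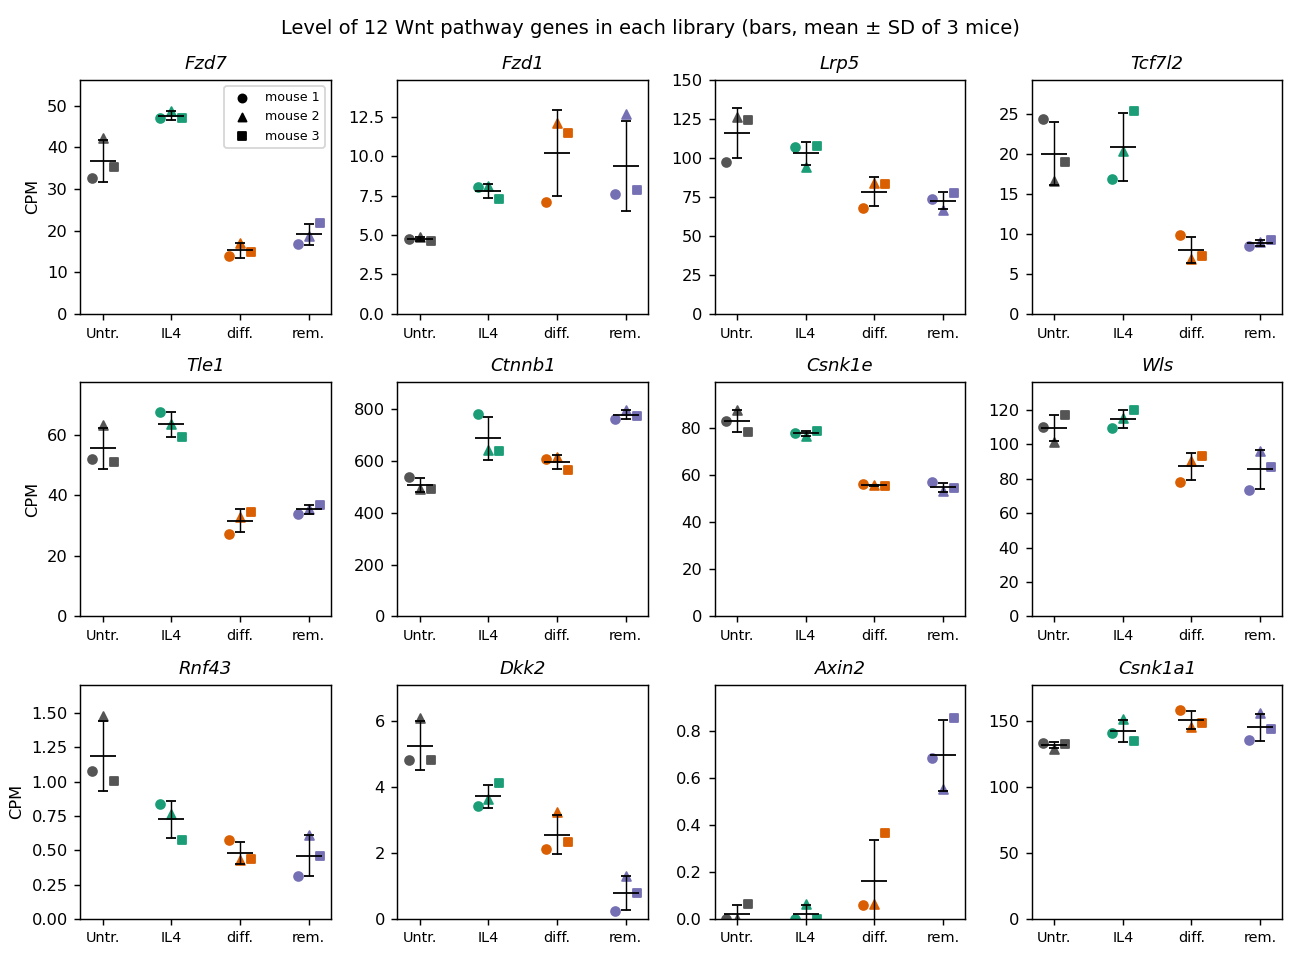
Level in CPM of 12 genes in each library (marker shape, mouse; bars, mean ± SD of 3 mice) of Untreated, IL4, the difference (diff.) and the remainder (rem.). Fzd7, Lrp5, Tcf7l2, Tle1, Csnk1e and Wls are lower in both Wnt3a-treated parts, Dkk2 runs down over the 4 groups, and Axin2 stands highest in the remainder.

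Each part was also compared with Untreated on its own, with the Untreated libraries shared by both comparisons. In the difference, 13 of 37 genes were called, 11 of them lower, beside 23.2% of all genes tested (11.8% higher and 11.4% lower). In the remainder, 14 were called, 12 of them lower, beside 25.3% of all genes tested (13.6% higher and 11.7% lower). The calls in both comparisons were 10 genes: Fzd1, Fzd5, Fzd7, Lrp5, Csnk1e, Tcf7l2, Tle1, Wls, Rnf43 and Dkk2. Fzd4, Csnk1g1 and Tle4 were called in the difference alone, and Dvl1, Ctnnb1, Bcl9 and Ctnnbip1 in the remainder alone. However, the difference between the parts was itself called for only 1 of these 7, Ctnnb1. Under some alternative to the main fit other than the deposited columns, each of these 7 except Ctnnbip1 was also called in the other part. Of the 10 shared calls, Fzd7, Csnk1e, Tcf7l2 and Tle1 held in both comparisons with any 1 mouse left out. Fzd5 was lost with any 1 mouse left out in the difference (edgeR adjusted p = 0.095 to 0.16) and in the remainder (0.068 to 0.24), and with DESeq2 in each (0.052). Rnf43 in the difference was lost with DESeq2 (0.064), without mouse 2 (0.15) and without mouse 3 (0.093), and in the remainder without mouse 1 (0.064) and mouse 3 (0.074). Wls was lost in both without mouse 1 (0.096 and 0.088) and mouse 3 (0.21 and 0.23), and Lrp5 in the difference without mouse 3 (0.059). With the mouse as a replicate block, Tle4 in the difference (adjusted p = 0.08) and Dvl1 in the remainder (adjusted p = 0.06) were no longer called. With total counts in place of TMM scaling, the median of all genes moved to -0.10 for the difference and to -0.13 for the remainder. The share of called genes that were higher then fell from 50.69% to 33.57% and from 53.78% to 35.57%. Under that scaling 15 of the 37 genes were called in the difference, 14 of them lower, and 19 in the remainder, 17 of them lower.

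**Figure D4:**
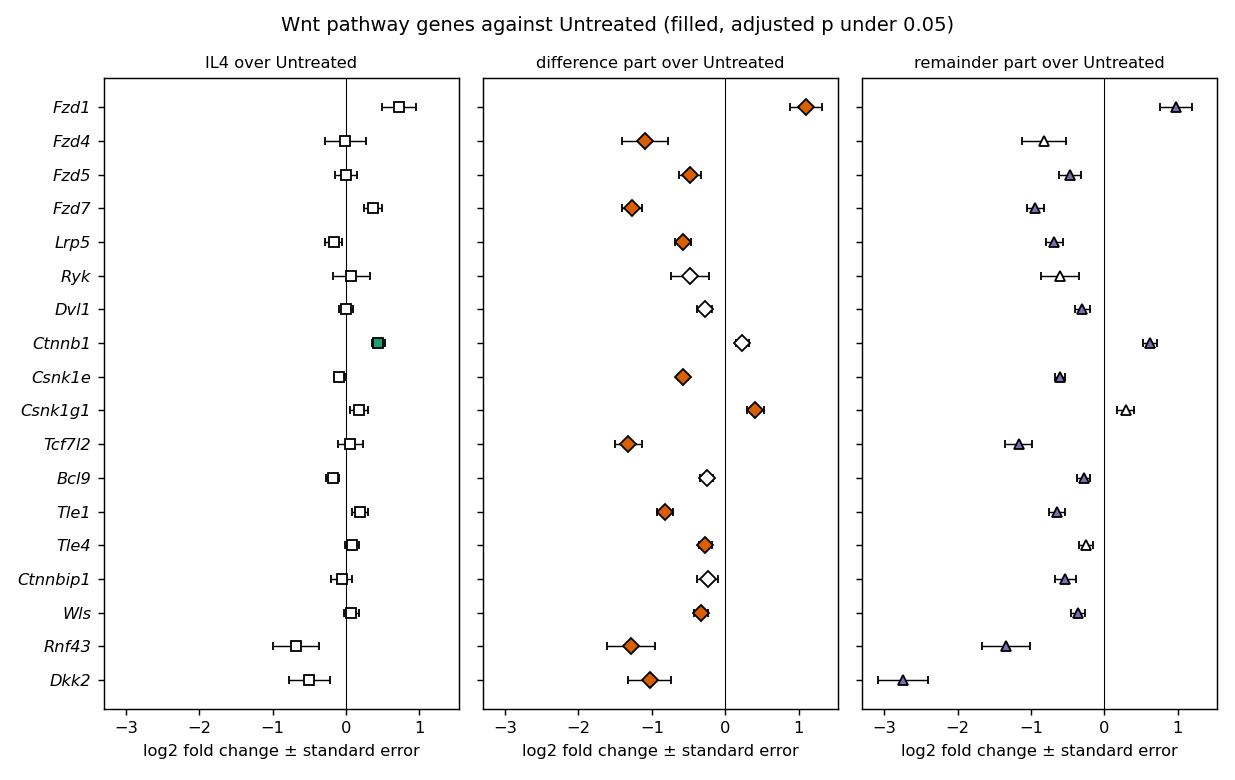
log2 fold change ± SE against Untreated of the 18 genes called in any comparison, for IL4, the difference and the remainder (filled, edgeR adjusted p under 0.05). In the IL4 panel Ctnnb1 alone is filled, at 0.44, and Dkk2 lies furthest left in the remainder panel, at -2.74.

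Between remainder and difference, 2 of 37 genes (5.41%) were called, close to the 5.25% of all genes tested (2.87% higher and 2.38% lower). Ctnnb1 was higher in the remainder by 0.39 on the log2 scale (SE 0.09, edgeR adjusted p = 0.019) and Dkk2 was lower (log2 -1.71, SE 0.36, adjusted p = 0.013). In both genes the 3 remainder libraries did not overlap with the 3 difference libraries. Without mouse 3 the adjusted p was 0.38 for Ctnnb1 and 0.26 for Dkk2, and when the Untreated and IL4 libraries were left out of the fit it was 0.071 for Dkk2.

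The effect of IL4 with Wnt3a was set against its effect without Wnt3a under each assignment of the parts. With the remainder taken as Wnt3a+IL4, 0 of 37 genes differed, beside 0.105% of all genes tested, in the edgeR test (2 had an unadjusted p under 0.05). With the difference taken as Wnt3a+IL4, 3 of 37 genes differed, a share close to the 7.33% of all genes tested. These were Ctnnb1 (-0.83 on the log2 scale, SE 0.12, adjusted p = 0.00058), Dkk2 (2.21, SE 0.46, adjusted p = 0.0084) and Fzd7 (-0.70, SE 0.18, adjusted p = 0.025). Mrc1, a macrophage marker known to rise with IL4, was at 36.4 to 66.8 CPM in Untreated, 191.3 to 269.7 CPM in IL4, 22.5 to 35.0 CPM in the difference and 132.7 to 152.6 CPM in the remainder, and no part was assigned from such values.

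Other genes of the pathway were counted by list in the comparison of both parts with Untreated and IL4, in which 32.6% of all genes tested were called. Of 17 other Wnt ligand genes 1 was tested, Wnt9a, and it was lower with Wnt3a (0.799 to 1.04 CPM against 1.02 to 2.20 CPM, log2 -0.76, SE 0.21, edgeR adjusted p = 0.014, with overlapping libraries). The 1 tested gene among other secreted or surface inhibitors was not called. Of other cytoplasmic components, 6 of 25 tested (24%) were called and all 6 were lower, among them the GSK3-binding genes Frat2 (-1.0, SE 0.10, adjusted p = 1.9e-06) and Frat1 (-0.75, SE 0.11, adjusted p = 0.00012), and Ccdc88c (-1.32, SE 0.33, adjusted p = 0.0069). For Ccdc88c the IL4 libraries were the high ones, at 22, 27 and 10 counts against 6 to 8 in Untreated, and neither part was called against Untreated. Of other nuclear factors, 2 of 21 rose and 2 fell (19.0% called). The shares of both lists lie below that of all genes. They included the SUMO protease gene Senp2 (-0.39, SE 0.06, adjusted p = 0.00013), Cby1, whose product binds beta-catenin (0.34, SE 0.10, adjusted p = 0.017), and the Mediator gene Med12 (0.26, SE 0.05, adjusted p = 0.0012).

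Of 31 tested genes of the non-canonical branch, 3 rose and 6 fell (29.0% called, also below the share of all genes), among them the GTPase gene Rac3 (-0.93, SE 0.12, edgeR adjusted p = 2.2e-05) and the kinase gene Prkca (0.79, SE 0.18, adjusted p = 0.0037). Of 13 tested textbook Wnt target genes outside the 50, 2 rose and 6 fell (61.5% called). Mmp14, a membrane-bound matrix protease, was at 40.2 to 64.7 CPM without and 357.7 to 533.9 CPM with Wnt3a (log2 3.10, SE 0.06, adjusted p = 2.4e-13). Ccnd1, which encodes the cell cycle regulator cyclin D1, was at 22.0 to 61.9 CPM without and 2.75 to 10.1 CPM with Wnt3a (-2.97, SE 0.14, adjusted p = 1.9e-09), and 23.4% of its exon bases overlap a gene on the other strand. Myc, a growth-promoting transcription factor gene, was at 10.8 to 22.9 CPM without and 2.12 to 7.20 CPM with Wnt3a (-2.0, SE 0.11, adjusted p = 4.1e-09). Both Ccnd1 and Myc were higher in IL4 than in Untreated (log2 0.95, adjusted p = 0.0051, and 0.77, adjusted p = 0.0039).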

How the data were processed

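The authors sequenced single reads on an Illumina instrument. Per the labels, FastQC 0.11.7, Trimmomatic 0.36, STAR 2.6.0, SAMtools 1.9, HTSeq 0.11.1 and DESeq2 1.24.0 were used with the mm10 build, and the deposited table holds raw counts, 1 row per gene. The annotation release and the strand setting are not given in the sources used here. Of 48526 Ensembl identifiers, 48058 (99.0%) paired with a symbol.

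The difference and the remainder were solved from the columns of each mouse. The 12421 genes that reached 10 counts in 3 or more of 12 libraries entered edgeR 4.0.16, run in R 4.3.3 (quasi-likelihood test, TMM scaling, no term for the mouse, Benjamini-Hochberg adjusted p threshold of 0.05). The samples are paired by the same mouse, as the labels state, and deviations of same-mouse libraries correlated at -0.417 to 0.454. Alternatives were DESeq2 1.42.0, DESeq2 size factors, total counts, other count filters, only the groups compared, the deposited columns, an adjusted p threshold of 0.01, the mouse as a replicate block and each mouse left out. Exon lengths and overlaps came from GENCODE vM21 (GRCm38), and promoters from RefSeq (GRCm38.p6).

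Members and gene lists were chosen with earlier results of these data known. Named with values are members called in at least 1 comparison with at least 10 counts in all 3 libraries of a group, Axin2, Lef1, Ctnnb1, Wls and Csnk1a1 whatever their result, and up to 3 called genes of each other list, by size of change. Some results that this rule selects from the other lists are not reported here. Other members, such as Wnt6, Lrp6 and Apc, were described after their values were seen.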

Additional observations from a re-analysis of the deposited data

Results flagged for a closer look

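The remainder and the difference parts differed in 2 of the 37 tested genes (5.41%), close to the 5.25% of all genes tested. These were Ctnnb1 (log2 0.39, edgeR adjusted p = 0.019) and Dkk2 (log2 -1.71, adjusted p = 0.013), each with non-overlapping libraries. Axin2, which was not among the 37, had an edgeR adjusted p of 0.035 when all genes with at least 1 count were tested. DESeq2 gave Axin2 an unadjusted p of 0.03535 and no adjusted p here. With the difference taken as Wnt3a+IL4, the effect of IL4 differed between cells with and without Wnt3a in 3 of 37 genes. That share is close to the 7.33% of all genes tested. The 3 genes were Ctnnb1 (-0.83), Dkk2 (2.21) and Fzd7 (-0.70). With the remainder taken as Wnt3a+IL4, the same contrasts gave -0.05 for Ctnnb1 (adjusted p = 0.91), -1.21 for Dkk2 (adjusted p = 0.3) and -0.05 for Fzd7 (adjusted p = 0.96). These contrasts were added after the data were seen, and the labels do not settle which assignment holds.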

How the results depend on the processing

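The counts of called genes moved with the processing. For members called in a comparison, with Ctnnb1, Wls and Csnk1a1, 0 of 520 fold changes under an alternative changed direction. Of the 520, 432 stayed on their side of the threshold and 87 lost the call. Without mouse 3, 21 of 49 stayed on their side and 28 lost the call. These members were picked by the main fit and the alternatives reuse its libraries, so the unchanged direction is no separate support. Members outside the calls gained one under some settings, up to 8 with the deposited columns and up to 5 with total counts. With 1 mouse left out, called members numbered 0 to 1 for IL4 against Untreated, 4 to 9 for the difference, 7 to 12 for the remainder, 0 to 3 for the remainder against the difference and 9 to 17 for both parts against Untreated and IL4. Over all genes these were 77 to 296, 1220 to 2117, 1375 to 3807, 97 to 1188 and 2081 to 3614. Fewer libraries enter those fits. With all genes of at least 1 count tested, IL4 gave 2 members (812 of all genes) and the remainder against the difference gave 6 members (1454 of all genes). With only the groups compared in the fit, IL4 gave 2 members, and the remainder against the difference 1 member and 422 genes. The deposited columns gave 20 members and 4063 genes for Wnt3a against Untreated, 1 member and 708 genes for IL4, and 0 members and 0 genes between the Wnt3a and Wnt3a+IL4 columns, which share reads by construction. At an adjusted p under 0.01, members numbered 0 for IL4, 6 for the difference, 9 for the remainder and 0 between the parts, and all genes 227, 1687, 1960 and 279. With the mouse as a replicate block, called members numbered 1, 12, 13, 2 and 16 in the order of the comparisons above (all genes 391, 2659, 2858, 556 and 3792), and the block changed no other call than those given in the results. Total counts lowered the share of called genes that were higher with IL4 from 68.01% to 53.81%. The cause of these changes was not tested, and members under 10 counts are limited by depth.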
